A study of Chlamydomonas reinhardtii with 8 samples.

Results

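Vegetative cells of the green alga Chlamydomonas reinhardtii that the labels call dnmt1 were compared between the mating types mt+ and mt- by RNA-seq. The members are 4 of the 8 libraries of the series, chosen by label: 2 biological replicates of dnmt1 mt+ from CC-5155 strains and 2 of dnmt1 mt- from CC-5325 strains. The other 4 libraries are wild type (WT) mt+ and mt-, 2 each, from strains with the same designations. All 4 groups were grown in acetate medium (TAP) in the light and carry no other treatment in the labels. The dnmt1 groups have the genotype label DNMT1 knockout, and no label gives the locus, the lesion, the number of independent lines or a complemented line. Mating type, strain and the line that carries the knockout therefore cannot be told apart in this comparison. Where WT is not named below, mt+ and mt- mean the libraries labelled dnmt1.

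Chlamydomonas is haploid, and its sex is set by a region of chromosome 6 in which the mt+ and mt- forms are rearranged against each other and recombine little. The mt+ form carries FUS1, which encodes a surface protein that plus gametes need for fusion, and most other genes of the region have a copy in both forms. Gametes form when nitrogen runs out, while vegetative cells of both mating types divide alike. DNMT1 enzymes methylate cytosine in DNA. In this alga a methyltransferase known as DMT1 has been linked to the methylation of chloroplast DNA in plus gametes, whose chloroplast genome is the one passed on.

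The 4 libraries held 16712723 and 15091414 counts in mt+ and 16136054 and 15176221 in mt-, and the WT libraries 12204374 to 21115955. The test covered 15263 of 17693 genes. Across genes, which are not independent replicates, log2 levels of the 2 replicates correlated with r = 0.990 in mt+ and 0.989 in mt-, and with 0.980 to 0.991 in WT. Levels are CPM, counts scaled to a common total with the TMM method of normalization. Calls rest on edgeR's quasi-likelihood test, with p adjusted after Benjamini and Hochberg over the 15263 genes and 0.05 as the limit. A log2 fold change is mt+ minus mt-, ± its standard error. The labels name biological replicates without saying whether they are separate cultures or lines, so the p-values measure the spread between these samples.

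The labels were first set against DMT1 (Cre10.g461750), the locus that the standard nomenclature gives to a DNA methyltransferase. Its level was 16.02 and 13.2 CPM in mt+ and 84.0 and 91.0 CPM in mt-, while the WT libraries held 28.2, 28.3, 28.7 and 24.5 CPM. Transcript of this locus was thus present in all 4 libraries, below every WT library in mt+ and above every WT library in mt-. It was lower in mt+ (log2 fold change -2.58 ± 0.12, edgeR adjusted p = 2.23e-09), and the contrast differed from that in WT (-2.66 ± 0.17 on the log2 scale, edgeR adjusted p = 8.62e-08). Whether this locus is the one disrupted is not stated, and a transcript level does not show whether a protein is made, so the word labelled is kept for these libraries.

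Between the mating types, 3363 of 15263 genes (22%) were called, 1628 of them higher in mt+ (10.7%) and 1735 lower (11.4%). Most differences were small: the median absolute log2 fold change of the called genes was 0.60, and 395 genes (2.59%) were at least 2-fold higher and 207 (1.36%) at least 2-fold lower. At a mean of at least 5 CPM these were 233 and 118 genes, and 16 reached 4-fold. The median over all tested genes was 0.01. With 1 library left out, the count was 1549 without mt+ replicate 1, 1452 without mt+ replicate 2, 1542 without mt- replicate 1, 1574 without mt- replicate 2, 5245 without WT mt+ replicate 1 and 5320 without WT mt+ replicate 2. The WT libraries enter because all 8 share 1 estimate of the spread.

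**Figure D1:**
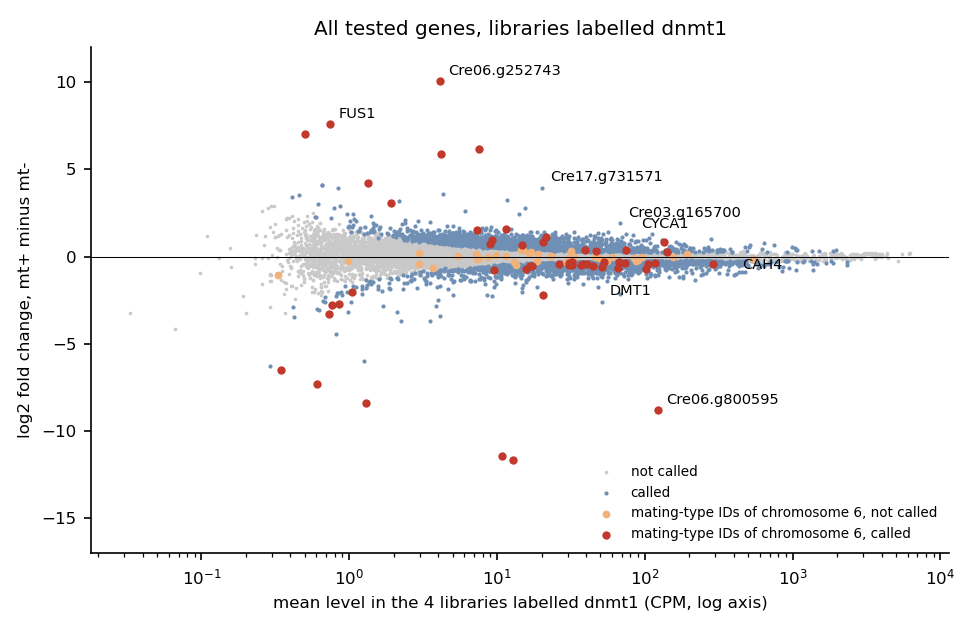
Each point is a tested gene, with its mean level in the 4 libraries labelled dnmt1 on a log axis (CPM) against its log2 fold change, mt+ minus mt-. The points farthest from 0 are red, the called genes of the chromosome 6 mating-type IDs, from Cre06.g252743 at 10.05 to Cre06.g800600 at -11.68 (fitted values of genes at 0 in 1 group, which are no bounds), while most called genes lie near the median absolute value of 0.60.

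The like contrast in WT, which shares no library with this one, called 3280 genes (21.5%), and 1306 and 1470 without WT mt- replicates 1 and 2. Of the 3363 genes, 826 were also called in WT in the same direction, which is 24.6% of the dnmt1 list and 25.2% of the WT list. Another 396 were called in the opposite direction (11.8% and 12.1%), and 2141 (63.7%) were called in dnmt1 alone. Among all tested genes WT called 10.6% as higher in mt+ and 10.9% as lower. The pooled share of opposite calls, 11.8%, was near these values but was uneven by direction. Of the 1628 genes higher in dnmt1 mt+, 267 were called lower in WT mt+. Of the 1735 genes lower in dnmt1 mt+, 129 were called higher in WT mt+. Both contrasts use 1 shared estimate of the spread, so the shares of all genes do not measure chance overlap. A call in 1 genotype alone does not show a difference, so the difference of the contrasts was tested for each gene: 2109 of 15263 genes (13.8%) were called, 1040 with a positive difference (6.81%) and 1069 with a negative one (7%). Among the 3363 they were 1265 (37.6%). All 396 genes of opposite direction were among them, as were 800 (37.4%) of the 2141 and 69 of the 826. Leaving out any one library other than WT mt+ replicate 1 moved the count for the difference by over 1.5 times: it was 4341 without WT mt+ replicate 2, 1088 and 1117 without either WT mt- replicate, 1138 and 1131 without either mt+ replicate, and 1163 and 1196 without either mt- replicate.

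The 2 mating types did not overlap in 9996 of all 15263 genes (65.5%), whatever their p, so lack of overlap alone does not set a gene apart. The group that stood away from the rest varied from gene to gene. Among the 351 genes called at 2-fold or more and at 5 CPM or more, both mt+ libraries lay outside the range of the 6 other libraries and the mt- libraries did not in 137 (39%). In 88 (25.1%) this was so of the mt- libraries alone, in 91 (25.9%) of both groups, and in 35 (9.97%) of neither. Over all tested genes these shares were 22.3%, 16.5%, 2.91% and 58.3%. They are descriptions, since the same libraries made the calls.

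**Figure D2:**
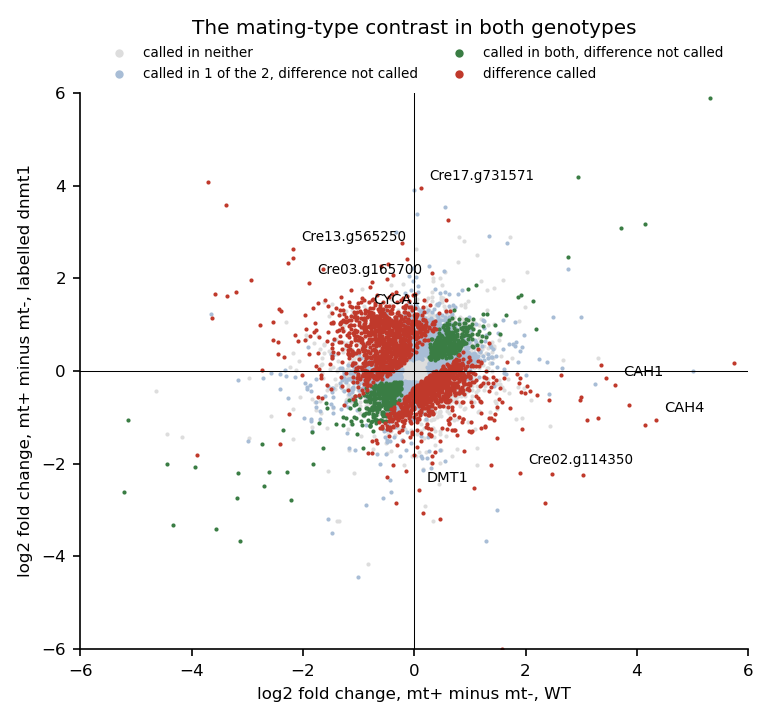
Log2 fold changes, mt+ minus mt-, in WT (x axis) and in the libraries labelled dnmt1 (y axis), 1 point per tested gene, with 13 genes outside the limits of 6 not drawn. Red points, the genes called for the difference, fill the quadrants of opposite sign and the sides of the axes, and green points, called in both with no call for the difference, lie along the diagonal.

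The widest gaps were in genes of the mating-type region and in newer IDs of chromosome 6. It was taken as the IDs Cre06.g250650 to Cre06.g255450, of which 84 are in the count table and 70 were tested. In it 16 genes were higher in mt+ and 25 lower, 58.6% of those tested against 22% of all genes. The median of the 70 log2 fold changes was -0.13. WT gave calls for 31 of the 70 (44.3%), 24 of them shared with dnmt1 in the same direction and 0 in the opposite one. For the difference between the genotypes 11 of 70 were called (15.7% against 13.8% of all genes). The count of 41 fell to 27 without mt+ replicate 1, 22 without mt+ replicate 2, 24 without mt- replicate 1 and 23 without mt- replicate 2.

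A few genes were read in 1 mating type alone. Cre06.g252743, which has no annotation used here, held 8.13 and 8.39 CPM in mt+ and 0 reads in both mt- libraries, so it was at least 41.8-fold higher in mt+ against a floor of 3 counts per library. FUS1 (Cre06.g252750) had 18 and 28 counts in mt+ and 0 in both mt- libraries, at least 7.48-fold higher. The same pattern held in WT, with 139 and 192 counts of Cre06.g252743 and 8 and 18 of FUS1 in mt+ and 0 in mt-. Cre06.g253051 was close to it, at 15.1 and 14.6 CPM in mt+ and 0.127 and 0.272 CPM in mt- (6.18 ± 0.37, edgeR adjusted p = 4.31e-08). Cre06.g252892 (5.88 ± 0.45) and Cre06.g254224 (4.18 ± 0.72) also held at most 0.272 CPM in either mt- library and were higher in mt+ (edgeR adjusted p = 6.41e-07 and 0.000765). Cre06.g802347, at 1.20 and 0.806 CPM in mt+ and 0 in mt-, was called (edgeR adjusted p = 0.00503) but not without mt- replicate 1 (0.0521).

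Among the genes read in mt- alone or nearly so were newer IDs of chromosome 6, a run of numbers around Cre06.g800600. The annotation used here gives these IDs no name or place. They were grouped with earlier results of these data known. Cre06.g800595 held 0.538 and 0.537 CPM in mt+ and 250 and 239 CPM in mt-, a log2 fold change of -8.81 ± 0.16 (edgeR adjusted p = 1.02e-14). Its WT levels, 0.340 and 0.649 CPM against 228 and 256 CPM, fell on the same 2 sides. Cre06.g800600 and Cre06.g800601 had 0 reads in mt+ and 24.2 and 26.97 CPM and 21.0 and 22.2 CPM in mt-, at least 134-fold and 114-fold lower in mt+. Cre06.g800613 was at least 13.7-fold lower in mt+ and Cre06.g800589 at least 3.64-fold, the latter not called without mt+ replicate 1 (edgeR adjusted p = 0.0542). Of 37 such IDs 19 were tested, and 52.6% of these were called against 22% of all genes. Lower in mt+ were 8 and higher 2, against 11.4% and 10.7% of all genes. All 10 were also called in WT in the same direction. For the difference 0 were called (edgeR), against 13.8% of all genes. The genes of this run at 0 in mt+ passed the count filter through the mt- libraries, where they were high. With the run also chosen after results were known, these shares are descriptions only. The bounds cover counting error only and take each count as a separate fragment, so they may be too high where both reads of a fragment were counted. The absence of a gene and the absence of its transcript cannot be told apart in these counts.

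Cre06.g251550 was at 0 in mt+ here and was read in WT mt+. It had 19 and 18 counts in mt- and 0 in both mt+ libraries, at least 6.39-fold lower in mt+, while WT mt+ held 4 and 6 counts and WT mt- 17 and 20. The difference between the contrasts was called (edgeR adjusted p = 0.0376), on counts of this size. In the whole table, 10 genes had 0 reads in 1 dnmt1 mating type and at least 20 reads over the 2 libraries of the other. All of them but Cre17.g745997, with 9 and 12 counts in mt+ and also read in WT mt-, were on chromosome 6.

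Genes of the region read in both mating types differed less. Cre06.g250650 was lower in mt+, at 6.75 and 7.99 CPM against 32.9 and 34.0 CPM (-2.18 ± 0.13, edgeR adjusted p = 5.68e-08). Cre06.g253300 was higher, at 16.1 and 18.3 CPM against 6.42 and 4.97 CPM (1.59 ± 0.17, edgeR adjusted p = 1.52e-05). Both were called in WT in the same direction and neither for the difference. Cre06.g251750 was the exception among the higher ones: 27.7 and 30.9 CPM in mt+ stood above 13.2 and 13.96 CPM in mt- (1.11 ± 0.13), while WT held 15.2 and 17.6 CPM in mt+ and 21.7 and 19.8 CPM in mt-, and the difference was called (1.45 on the log2 scale, edgeR adjusted p = 8.52e-05). MAT3 (Cre06.g255450), the retinoblastoma-related protein that sets cell size at division, lies at the end of the region and held 58.9 and 60.3 CPM in mt+ and 79.2 and 71.1 CPM in mt-. Its call (-0.34 ± 0.11, edgeR adjusted p = 0.0385) was lost without any one of the 4 libraries or either WT mt- library, with an adjusted p of up to 0.306.

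**Figure D3:**
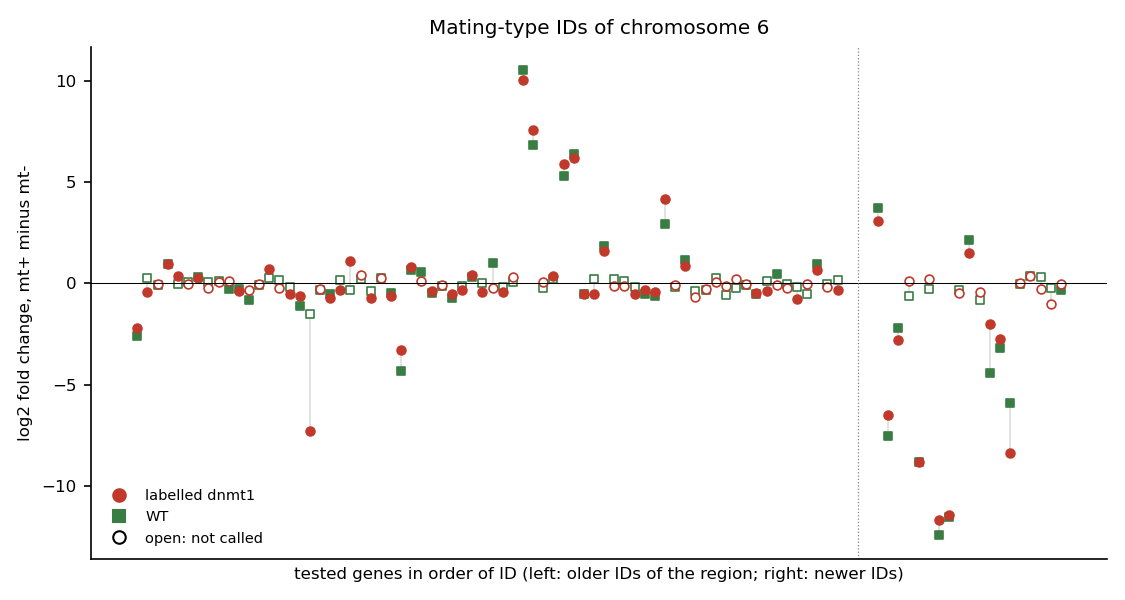
Log2 fold changes, mt+ minus mt-, of the 70 tested genes of the mating-type region (left of the dotted line) and of the 19 tested newer IDs (right), in order of ID, for the libraries labelled dnmt1 (circles) and WT (squares); filled symbols were called. Genes far from 0 have circle and square on the same side, and the pair farthest apart is Cre06.g251550, whose circle lies at -7.29 and whose square was not called.

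Neighbouring genes showed how far the region's excess of calls reached. In consecutive windows of 40 tested genes in order of ID, 339 in all, the median share called was 22.5% and the quartiles were 17.5% and 27.5%. The window Cre06.g251250 to Cre06.g254100 had 67.5%, the one before it 47.5% and the one after it 40%. Outside these 3 windows the highest share was 47.5%, in Cre09.g396600 to Cre09.g397512, with 9 genes higher and 10 lower in mt+, against 17.5% in WT. ID order stands in for position, and 84.1% of neighbouring pairs kept it in the reference table of an earlier annotation. Whole chromosomes ranged from 16% called (chromosome 15) to 24.6% (chromosome 9), with chromosome 6 at 22.2%.

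Outside the region, the gene with the largest log2 fold change at 5 CPM or more was Cre17.g731571. It held 35.2 and 40.02 CPM in mt+ and 1.91 and 3.00 CPM in mt-, and 40.7 to 47.6 CPM in the 4 WT libraries. The mt- libraries were low and the other 6 alike (3.94 ± 0.17, edgeR adjusted p = 1.57e-09; difference from WT 3.82 ± 0.21). Cre17.g731591 is separated from it by 1 gene in the reference table. In mt- it was also far below the other 6 libraries, at 1.78 and 2.66 CPM against 21.7 and 20.7 CPM in mt+ and 19.4 to 36.2 CPM in WT (3.26 ± 0.21, edgeR adjusted p = 7.82e-08). WT called this gene higher in mt+ too, and the difference between the contrasts was called (2.66 on the log2 scale). Cre17.g737350 followed at 28.8 and 25.0 CPM in mt+, 4.7 and 3.2 CPM in mt- and 24.0 to 32.2 CPM in WT (2.76 ± 0.18, edgeR adjusted p = 9.39e-08). The annotation used here names none of these 3 genes.

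Other genes higher in mt+ had an opposite contrast in WT. Cre03.g165700 held 107 and 106 CPM in mt+ and 28.04 and 28.7 CPM in mt-, while WT held 32.1 and 35.0 CPM in mt+ and 128 and 121 CPM in mt-. Its log2 fold change was 1.91 ± 0.09 in dnmt1 and -1.89 in WT (edgeR adjusted p = 2.34e-09 and 2.22e-09), so that the levels of the mating types were exchanged between the genotypes. Cre13.g565250 did the same at 8.61 and 12.3 CPM in mt+ and 1.59 and 1.77 CPM in mt- (2.63 ± 0.27 against -2.18 in WT). Cre06.g249350 (2.45 ± 0.19), which lies just before the mating-type IDs, and Cre06.g275350 (1.78 ± 0.27) were higher in mt+ in WT too, and Cre06.g278199 (1.70 ± 0.18) was called in dnmt1 and for the difference.

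Among genes lower in mt+, DMT1 led outside chromosome 6. Cre03.g195950 held 3.11 and 3.16 CPM in mt+ and 15.7 and 14.9 CPM in mt- (-2.29 ± 0.21, edgeR adjusted p = 3.04e-06), with 2.12 to 3.17 CPM in WT. Cre03.g194600 held 23.4 and 26.4 CPM in mt+ and 111 and 110 CPM in mt- (-2.15 ± 0.10, edgeR adjusted p = 2.23e-09), with 14.2 to 16.7 CPM in WT. In both the mt- libraries were the high ones, as was so of Cre03.g800355 at 21.9 and 24.0 CPM against 4.84 to 9.34 CPM in the 6 other libraries (-1.81 ± 0.22). Cre02.g114350 had opposite contrasts, at 2.87 and 3.22 CPM in mt+ and 14.8 and 13.1 CPM in mt- against 11.04 and 10.9 CPM in WT mt+ and 3.19 and 2.63 CPM in WT mt- (-2.20 ± 0.20 against 1.90, both called). Cre10.g452250 (-2.03 ± 0.20) and Cre14.g613800 (-1.77 ± 0.18) were lower in mt+ and called for the difference, while Cre03.g800361 (-2.19 ± 0.26) was lower in both genotypes (WT -2.30) with no call for the difference.

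Cell-cycle genes, which drive DNA replication and mitosis, were nearly all higher in mt+. All 6 members tested were called, 5 higher in mt+ and 1 (MAT3) lower, and their median was 0.89 on the log2 scale against 0.01 for all genes. Of all genes, 22% were called, 10.7% as higher. This list, like the others below, was chosen with earlier results of these data known. CYCA1 (Cre03.g207900), an A-type cyclin, held 116 and 119 CPM in mt+ and 50.7 and 47.7 CPM in mt-, and in WT 43.8 and 43.9 CPM in mt+ and 76.4 and 86.2 CPM in mt-. The higher mating type thus differed between the genotypes (1.26 ± 0.09 in dnmt1, -0.89 in WT, difference 2.14; edgeR adjusted p = 3.36e-07, 1.24e-05 and 5.15e-08). CYCB1 (Cre08.g370401), a mitotic cyclin, held 114 and 105 CPM against 63.1 and 60.4 CPM (0.83 ± 0.10), and in WT 58.4 and 47.0 CPM against 98.3 and 97.2 CPM (-0.90; edgeR adjusted p = 3.31e-05 and 2.80e-05). CDKB1 (Cre08.g372550), the kinase that acts at mitosis, held 88.6 and 85.1 CPM against 43.9 and 45.2 CPM (0.96 ± 0.09, edgeR adjusted p = 2.96e-06) and was lower in mt+ in WT (-0.38).

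PCN1 (Cre12.g515850), the sliding clamp of DNA replication, held 175 and 171 CPM in mt+ and 89.3 and 89.8 CPM in mt-, on either side of the WT range of 117 to 130 CPM (0.95 ± 0.08, edgeR adjusted p = 1.17e-06). It was not called in WT (-0.13), and the difference was called (1.08 on the log2 scale, edgeR adjusted p = 8.79e-06). CDKA1 (Cre10.g465900), the kinase that acts at the commitment to divide, held 45.3 and 47.9 CPM against 27.1 and 30.2 CPM (0.70 ± 0.10, edgeR adjusted p = 0.000190). It was also higher in mt+ in WT (0.29), and its difference was not called (edgeR adjusted p = 0.0739). The 5 genes stayed higher in mt+ without any one of the 8 libraries. The labels give a common cell density at harvest and no synchronization or measure of cell-cycle stage, so the share of dividing cells and the level per cell cannot be told apart.

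**Figure D4:**
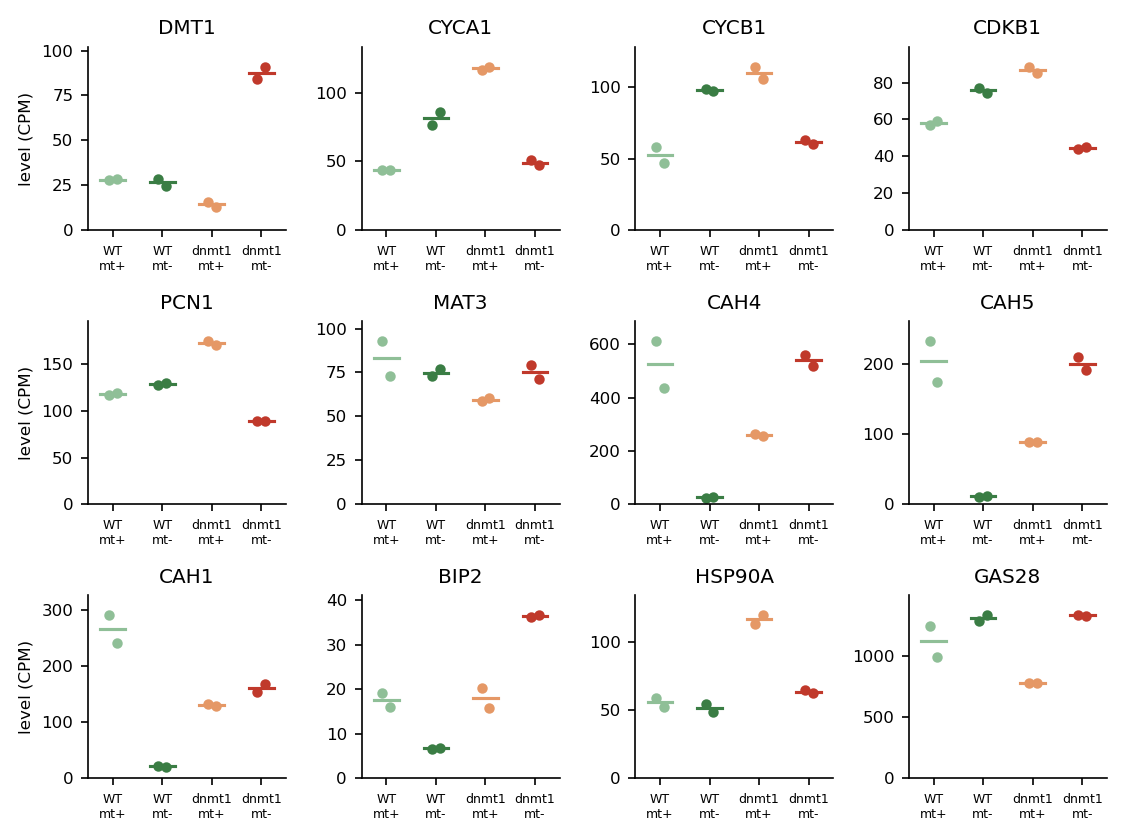
Level in each library (points, CPM, axes from 0) and mean of the 2 replicates (lines) of 12 genes in WT mt+, WT mt-, dnmt1 mt+ and dnmt1 mt-. DMT1 is highest in dnmt1 mt- at 84.0 and 91.0 CPM, the cyclins CYCA1 and CYCB1 are higher in mt+ in dnmt1 and in mt- in WT, and CAH4, CAH5 and CAH1 are far lower in WT mt- than in the other groups.

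Genes of inorganic carbon uptake, which bring bicarbonate and CO2 to Rubisco when CO2 is scarce, were split. Of 20 tested, 2 were higher in mt+ and 8 lower, against 10.7% and 11.4% of all genes, with a median of -0.19. CAH5 (Cre05.g248450) and CAH4 (Cre05.g248400), which encode nearly identical mitochondrial carbonic anhydrases whose reads the counting may divide between them, held 89.3 and 89.1 CPM and 263 and 256 CPM in mt+. In mt- they held 209 and 191 CPM and 560 and 520 CPM. Both were lower in mt+ (-1.17 ± 0.12 and -1.06 ± 0.12, edgeR adjusted p = 7.53e-06 and 2.26e-05). In WT the contrast had the other sign and was larger (4.14 and 4.34), since WT mt- held 10.7 and 12.5 CPM of CAH5 and 24.7 and 27.1 CPM of CAH4.

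CAH1 (Cre04.g223100), the periplasmic carbonic anhydrase, was at 133 and 129 CPM in mt+ and 153 and 169 CPM in mt-. This gap was small (-0.30 ± 0.10, edgeR adjusted p = 0.0371) and was not called without any one of the 4 libraries or either WT mt- library (adjusted p up to 0.280), beside 3.60 in WT. CAH8 (Cre09.g405750), another periplasmic carbonic anhydrase, was lower in mt+ at 32.7 and 31.6 CPM against 63.5 and 60.2 CPM (-0.94 ± 0.12, edgeR adjusted p = 8.01e-05), with no call in WT and a called difference (-1.05). The bestrophin-like channel genes BST3 (Cre16.g663450), at 56.9 and 57.1 CPM against 38.4 and 32.3 CPM (0.69 ± 0.12), and BST2 (Cre16.g663400), at 19.8 and 21.7 CPM against 15.2 and 14.03 CPM (0.50 ± 0.14), were higher in mt+ (edgeR adjusted p = 0.000694 and 0.0168). BST2 was lower in mt+ in WT (-0.92), and its dnmt1 call was lost without mt+ replicate 2 or either mt- replicate (adjusted p up to 0.130). The 8 lower members were 5 without either WT mt- replicate, 3 without either mt+ replicate and 4 without either mt- replicate.

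Of 15 tested tubulins and genes of intraflagellar transport, which builds and maintains the flagella, 8 were lower in mt+ and 0 higher, against 11.4% lower and 10.7% higher among all genes, and 7 were not called. The log2 fold changes of the 15 ran from -0.47 to 0.10 with a median of -0.25, 13 below 0 and 2 above. IFT140 (Cre08.g362650) and IFT139 (Cre06.g268800), parts of the complex that carries cargo back from the flagellar tip, held 141 and 141 CPM and 116 and 104 CPM in mt+ and 193 and 196 CPM and 147 and 158 CPM in mt- (-0.47 ± 0.09 each, edgeR adjusted p = 0.00131 and 0.00226). IFT80 (Cre03.g204150; -0.44 ± 0.08) and IFT46 (Cre05.g241637; -0.36 ± 0.08), parts of the outward complex, were also lower (edgeR adjusted p = 0.00148 and 0.00317). WT called 2 of the 15, both lower, and 0 were called for the difference (edgeR). The count of 8 was 5 and 2 without mt+ replicates 1 and 2, and 4 and 3 without mt- replicates 1 and 2. IFT139 was not called without mt+ replicate 2 (adjusted p = 0.0560), and IFT46 without mt+ replicate 2 or mt- replicate 2 (up to 0.0564).

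Of 12 tested chlorophyll synthesis genes, 5 were higher in mt+ and 0 lower, against 10.7% higher and 11.4% lower among all genes, and 7 were not called. Their median was 0.29, with 9 values above 0 and 3 below. CHLI1 (Cre06.g306300), CHLD1 (Cre05.g242000) and CHLH1 (Cre07.g325500) encode the subunits of magnesium chelatase, the first enzyme of the chlorophyll branch. CHLI1 held 73.4 and 72.2 CPM in mt+ and 52.4 and 53.9 CPM in mt- (0.46 ± 0.09, edgeR adjusted p = 0.00188). CHLD1 (0.54 ± 0.14) and CHLH1 (0.48 ± 0.14) were also higher, as were POR1 (Cre01.g015350), which makes chlorophyllide in light (0.47 ± 0.10), and GTR1 (Cre07.g342150), of an early step of the pathway (0.38 ± 0.10), with edgeR adjusted p = 0.0116, 0.0195, 0.00390 and 0.0136. CHLD1, CHLH1 and GTR1 lost their calls without mt+ replicate 2 or either mt- replicate (adjusted p up to 0.139, 0.170 and 0.166), and POR1 without mt- replicate 2 (0.0516). The list's count of 5 was 2 without mt+ replicate 2 or mt- replicate 1 and 1 without mt- replicate 2. WT called 8 of the 12 as higher in mt+, and none of the 5 was called for the difference (edgeR adjusted p = 0.0890 to 0.736).

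Few of the antenna, photosystem, Rubisco and photoprotection genes were called in dnmt1, beside 22% of all genes. Among 20 antenna genes only LHCBM8 (Cre06.g284250) was called, at 73.3 and 76.7 CPM in mt+ and 43.6 and 43.9 CPM in mt- (0.78 ± 0.13, edgeR adjusted p = 0.000556), and 3 had an unadjusted p under 0.05. Among 16 nuclear photosystem and Rubisco subunit genes only RBCS1 (Cre02.g120100), a Rubisco small subunit with a near-identical copy that may share its reads, was called, at 388 and 369 CPM against 296 and 283 CPM (0.39 ± 0.12, edgeR adjusted p = 0.0276). It was not called without any one of the 4 libraries (adjusted p up to 0.183). The medians of these lists were -0.03 and -0.01. WT called 7 antenna genes as higher in mt+ and 1 as lower, and 7 and 0 of the subunit genes, against 10.6% and 10.9% of all genes. The difference was called above 0 for 1 antenna gene and below 0 for 5, against 6.81% and 7% of all genes. Among the subunit genes it was called for 0 and 1. Of 3 tested photoprotection genes edgeR and DESeq2 called 0, and 1 had an unadjusted p under 0.05.

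The list of DMT1 and genes of methyl-group supply and turnover had 5 tested members. Called as higher in mt+ were 4 and as lower 1 (DMT1), against 10.7% and 11.4% of all genes. METE1 (Cre03.g180750), a methionine synthase that works without cobalamin, held 1165 and 1171 CPM in mt+ and 801 and 818 CPM in mt- (0.53 ± 0.08, edgeR adjusted p = 0.000393). SAH1 (Cre03.g204250), which removes the S-adenosylhomocysteine left by methylation, held 1220 and 1214 CPM against 926 and 922 CPM (0.40 ± 0.10, edgeR adjusted p = 0.0102). METM1 (Cre06.g250200), which makes S-adenosylmethionine, the methyl donor, was at 2061 and 2065 CPM against 1694 and 1661 CPM (0.30 ± 0.08), and METH1 (Cre06.g250902), the cobalamin-dependent methionine synthase, was at 79.9 and 89.5 CPM against 70.1 and 59.4 CPM (0.39 ± 0.12; edgeR adjusted p = 0.0191 and 0.0306). METE1, SAH1 and METM1 were higher in mt+ in WT as well (0.63, 0.65 and 0.65), and none of the 4 was called for the difference. SAH1 and METM1 were not called without any one of the 4 libraries (adjusted p up to 0.0933 and 0.160), and METH1, which lies inside the mating-type IDs, not without mt+ replicate 1 or 2, mt- replicate 2 or either WT mt- replicate (up to 0.272).

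**Figure D5:**
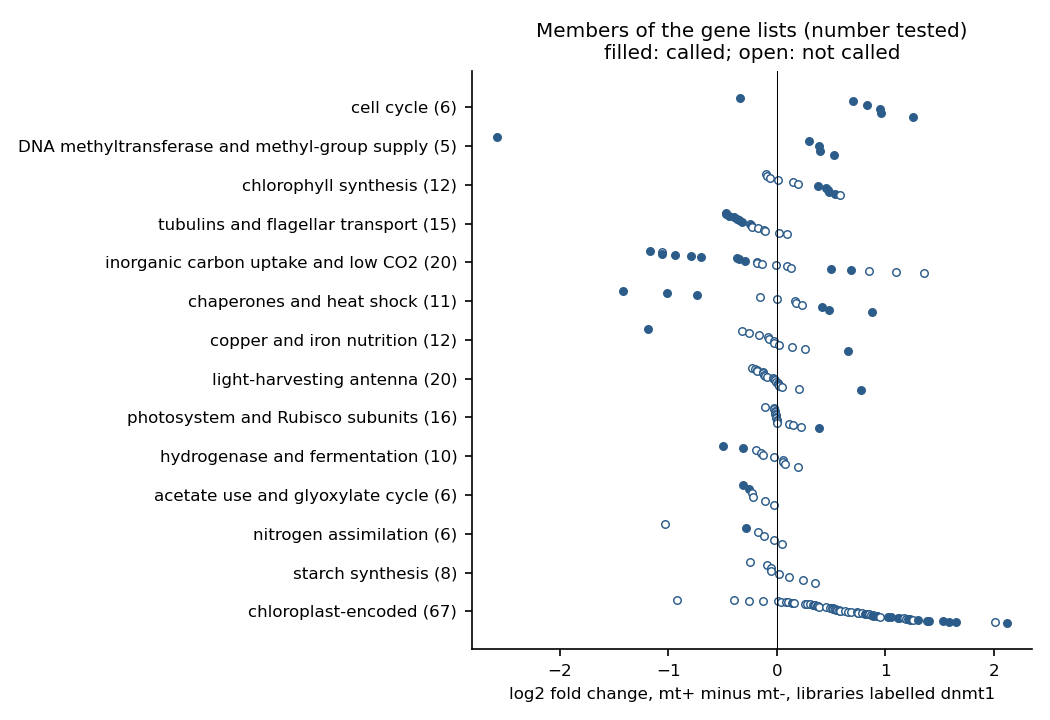
Log2 fold change, mt+ minus mt-, in the libraries labelled dnmt1 of each tested member of 14 gene lists, with the number tested in brackets; filled points were called. The cell-cycle points lie to the right apart from MAT3 at -0.34, the 8 called flagellar points lie left of 0, and the chloroplast-encoded points spread to the right around a median of 0.63.

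Chaperone genes went both ways. Of 11 tested, 3 were higher in mt+ and 3 lower, 54.5% called against 22% of all genes. HSP90A (Cre09.g386750) and HSP70A (Cre08.g372100), the cytosolic chaperones, were higher, at 114 and 120 CPM against 64.8 and 62.4 CPM (0.88 ± 0.09) and at 119 and 122 CPM against 84.5 and 87.8 CPM (0.48 ± 0.08), with edgeR adjusted p = 1.14e-05 and 0.000855. HSP90C (Cre12.g514850), of the chloroplast, was higher too (0.42 ± 0.09, edgeR adjusted p = 0.00442), though not without mt- replicate 1 (0.0580). BIP2 (Cre02.g080600), an endoplasmic reticulum chaperone whose close copy may share its reads, was lower at 20.3 and 15.7 CPM against 36.2 and 36.7 CPM (-1.01 ± 0.14, edgeR adjusted p = 0.000111), the opposite of WT (1.38). HSP70B (Cre06.g250100), of the chloroplast, whose ID lies just before the mating-type region, was lower in both genotypes (-0.74 ± 0.11 and -1.27 in WT, edgeR adjusted p = 0.000171 and 3.12e-06). HSP22A (Cre07.g318800), a small heat-shock protein, was lower at 3.53 and 3.76 CPM against 10.4 and 9.13 CPM (-1.42 ± 0.23, edgeR adjusted p = 0.000493).

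In the metal and central metabolism lists the shares called were 16.7% of 12 copper and iron genes, 20% of 10 fermentation genes, 33.3% of 6 acetate genes and 16.7% of 6 nitrogen genes, against 22% of all genes. CYC6 (Cre16.g651050), the cytochrome that replaces plastocyanin when copper is short, was lower in mt+ at 7.41 and 8.86 CPM against 19.3 and 17.7 CPM (-1.19 ± 0.17, edgeR adjusted p = 0.000178) and higher in WT mt+ (1.27). FEA2 (Cre12.g546600), an iron-assimilation protein, was higher at 69.6 and 65.1 CPM against 44.8 and 40.6 CPM (0.66 ± 0.12, edgeR adjusted p = 0.00146), and the other 10 of the 12 tested copper and iron genes were not called. In acetate and fermentation metabolism, PAT2 (Cre09.g396650) and ACK1 (Cre09.g396700), neighbours that encode phosphate acetyltransferase and acetate kinase, were lower at 375 and 377 CPM against 528 and 535 CPM (-0.50 ± 0.09) and at 178 and 186 CPM against 219 and 231 CPM (-0.31 ± 0.08), with edgeR adjusted p = 0.00146 and 0.0110. Their contrasts differed from those in WT (edgeR adjusted p = 0.00131 and 0.0475). Both lie in the chromosome 9 window with the highest share of calls outside chromosome 6.

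ACS3 (Cre07.g353450), an acetyl-CoA synthetase, and CIS2 (Cre03.g149100), a citrate synthase, were lower (-0.31 ± 0.09 and -0.25 ± 0.09, edgeR adjusted p = 0.0206 and 0.0462), 2 of 6 acetate genes tested, with DESeq2 calling 4. GLN1 (Cre02.g113200), a glutamine synthetase, was lower at 425 and 447 CPM against 533 and 526 CPM (-0.28 ± 0.08, edgeR adjusted p = 0.0159), the 1 call among 6 nitrogen genes, and had the other sign in WT (0.23). ACK1, ACS3, CIS2 and GLN1 lost their calls without any one of the 4 libraries, and CIS2 also without WT mt- replicate 1 (adjusted p up to 0.141, 0.166, 0.253 and 0.185). Among 8 starch synthesis genes edgeR and DESeq2 called 0, and 2 had an unadjusted p under 0.05. NIT1 (Cre09.g410950), nitrate reductase, had 0 counts in all 8 libraries.

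Genes encoded in the chloroplast genome, of 67 tested, were higher in mt+ in 16 cases and lower in 0, 23.9% against 10.7% of all genes called as higher. Their median log2 fold change was 0.63, and 63 of the 67 values were above 0. CreCp.g802271 held 9.21 and 7.59 CPM in mt+ and 1.97 and 3.40 CPM in mt-, with 6.37 to 10.1 CPM in WT (1.65 ± 0.26, edgeR adjusted p = 0.000392). Their summed level was 559 and 442 CPM in mt+ and 406 and 308 CPM in mt-, so that the groups did not overlap, and in WT 684 and 395 CPM and 527 and 654 CPM. Replicates thus stood apart by much of the gap between the groups. These genes were a very small part of each library, 0.0559% and 0.0436% of counts in mt+ and 0.0395% and 0.0298% in mt-. What sets this share in a library, and whether it bears on the common shift, was not tested. The count of 16 was 3 without mt+ replicate 1 or without mt- replicate 2, 30 without either WT mt+ replicate, and 1 of the genes at 10 CPM or more. The 8 mitochondrion-encoded genes had no call by edgeR or DESeq2 and 0 with an unadjusted p under 0.05 (median -0.23).

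The vegetative label was set against 4 gamete markers. FUS1 was the 1 sex-specific marker seen, at the 18 and 28 counts given above. GSP1 (Cre02.g109650) and GSM1 (Cre08.g375400), the homeodomain proteins that plus and minus gametes bring to the zygote, had 1 to 5 and 4 to 10 counts in the 4 libraries, too few to test. GAS28 (Cre11.g481600), a cell-wall glycoprotein gene induced in gametes, was abundant in every library, at 780 CPM in each mt+ replicate and 1338 and 1327 CPM in mt-, with 996 to 1338 CPM in WT. It was lower in mt+ than in all 6 other libraries (-0.77 ± 0.10, edgeR adjusted p = 4.49e-05; difference from WT -0.54, edgeR adjusted p = 0.0143). Over the 4 markers the summed level ran from 781 to 783 CPM in mt+ and from 1327 to 1339 CPM in mt-, nearly all of it GAS28, and its part in the results above was not tested.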

How the data were processed

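The authors deposited raw counts per gene and a table of normalized signal, used here only to recompute its size factors (0.749 to 1.42). Per the submitters' processing notes, the tools were DESeq2, featureCounts, Picard, STAR 2.7.6 and Trim Galore 2.6; the genome build and strand setting are not given in the sources used here. Gene IDs carry a suffix that was left off, and 15386 of 17693 (87.0%) matched a reference table of an earlier annotation, so no coordinates or sequences are printed. Symbols come from a list written by hand from the standard nomenclature, which no file pairs with the IDs.

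Genes were kept by filterByExpr on the 4 groups, which left 15263, with 572 at 0 in every library. After TMM normalization, edgeR 4.0.16 in R 4.3.3 fitted all 8 libraries with a mean for each group (glmQLFit), which left 4 residual degrees of freedom. The contrasts of mating type in dnmt1, in WT and their difference were tested 2-sided with glmQLFTest and adjusted by the Benjamini-Hochberg method over the tested genes. The standard error is the log2 fold change divided by the square root of F. The fit was tested on simulated data. Genes at 0 in a group are given as bounds against 3 counts per library. Of low counts, 25.5% to 30.8% per library were odd, so both reads of a fragment may have been counted separately. The floor of 3 counts would then stand for fewer than 3 fragments, and the bounds may be too high. They cover counting error only, with each count taken as a separate fragment.

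Named genes were called, at a mean of 5 CPM or more over the 4 libraries with groups apart, the 10 largest each way; the first 5 each way of those at 0 in a group; the 4 list members with the smallest p and every called member of a list with at most 5 calls in a direction; DMT1, FUS1 and MAT3; called members of the mating-type region; and the 5 largest differences each way. Members of the mating-type region are given by number where not named. Cre17.g745997 was named after its values were seen. The members and the 15 lists were chosen with earlier results of these data known. Alternatives were DESeq2 1.42.0, RLE or library size scaling, no filter, a 2-fold minimum, a mean of 10 CPM, halved counts, a fit to the compared groups alone, a wider mating-type range, a replicate block and leaving out each library. Figures were drawn with matplotlib 3.10.9.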

Additional observations from a re-analysis of the deposited data

Results flagged for a closer look

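The named genes below are those whose log2 fold change between the mating types differed between the libraries labelled dnmt1 and WT in a test of the difference itself, called for 2109 genes in all (edgeR). Values are dnmt1 minus WT on the log2 scale. Called in both genotypes in opposite directions, with a difference above 0, were Cre13.g565250 at 4.81, Cre03.g165700 at 3.80, Cre17.g723400 at 3.21, Cre10.g448977 at 3.17, CYCA1 (Cre03.g207900) at 2.14 and CYCB1 (Cre08.g370401) at 1.73. Further down the same order were BST2 (Cre16.g663400) at 1.42 and CDKB1 (Cre08.g372550) at 1.35. Called in both genotypes in opposite directions, with a difference below 0, were CAH4 (Cre05.g248400) at -5.40, CAH5 (Cre05.g248450) at -5.31, Cre02.g114350 at -4.09, CAH1 (Cre04.g223100) at -3.90, CYC6 (Cre16.g651050) at -2.46 and BIP2 (Cre02.g080600) at -2.39. Further down the same order was GLN1 (Cre02.g113200) at -0.51. Called in dnmt1 and not in WT, with a difference above 0, were Cre17.g731571 at 3.82, Cre17.g737350 at 2.99, CreCp.g802271 at 2.05, Cre06.g278199 at 2.03, Cre06.g251750 at 1.45 and PCN1 (Cre12.g515850) at 1.08. Further down the same order was HSP90A (Cre09.g386750) at 0.78. Called in dnmt1 and not in WT, with a difference below 0, were Cre06.g251550 at -5.77, DMT1 (Cre10.g461750) at -2.66, Cre03.g194600 at -2.01, Cre03.g800355 at -1.81, Cre03.g195950 at -1.80 and Cre10.g452250 at -1.66. Further down the same order were HSP22A (Cre07.g318800) at -1.35, CAH8 (Cre09.g405750) at -1.05, PAT2 (Cre09.g396650) at -0.75, Cre06.g253250 at -0.73, Cre06.g250750 at -0.68 and GAS28 (Cre11.g481600) at -0.54. Further down the same order were Cre06.g251716 at -0.51, MAT3 (Cre06.g255450) at -0.48, Cre06.g252550 at -0.41 and ACK1 (Cre09.g396700) at -0.35. Called in both in the same direction and with unequal size, with a difference above 0, were Cre17.g731591 at 2.66, HSP70B (Cre06.g250100) at 0.54 and Cre06.g251500 at 0.50. Called in both in the same direction and with unequal size, with a difference below 0, was Cre14.g613800 at -1.001. Called in WT and not in dnmt1, with a difference above 0, were LHCSR1 (Cre08.g365900) at 2.76 and STA7 (Cre03.g155001) at 1.47. Called in WT and not in dnmt1, with a difference below 0, were Cre02.g144650 at -2.73, STA11 (Cre03.g181500) at -0.72, STA3 (Cre06.g282000) at -0.57, LHCBM6 (Cre06.g285250) at -0.46, LHCB5 (Cre16.g673650) at -0.44 and STA6 (Cre03.g188250) at -0.40. Called in neither genotype alone, with a difference below 0, was LHCA3 (Cre11.g467573) at -0.51. The value of Cre06.g251550 is a fitted one, rests on 0 counts in dnmt1 mt+ and is no bound. Mating type cannot be told apart from strain in these differences.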

How the results depend on the processing

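None of the 105 called named genes changed direction under an alternative that tested it. DESeq2 called 2789 genes in the dnmt1 contrast, and RLE scaling, library size scaling, no low-count filter and halved counts called 3173 to 3498. Library size scaling raised the share of calls higher in mt+ from 48.4% to 54.9%, changed it from 49.2% to 37.9% in WT and from 49.3% to 64.4% for the difference, and moved the median of all genes to 0.04.

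With a 2-fold minimum the counts were 602 in dnmt1 (395 higher, 207 lower), 470 in WT and 831 for the difference; 10 in the mating-type region; 1 cell-cycle gene, 0 flagellar genes, 2 low-CO2 genes and 0 chlorophyll genes. With the compared groups alone they were 5221 in dnmt1 (2589 higher, 2632 lower), 1771 in WT, 13 flagellar genes and 29 chloroplast-encoded genes. At a mean of 10 CPM or more, 1133 genes were lower in mt+, and 27 genes of the mating-type region, 4 low-CO2 genes and 1 chloroplast-encoded gene were called.

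With 1 library left out, the ranges were 1452 to 5320 for dnmt1 (779 to 2620 higher, 673 to 2780 lower), 1306 to 4869 for WT, 1088 to 4341 for the difference, 22 to 51 for the mating-type region, 5 to 5 for the cell-cycle genes, 2 to 11 for flagellar, 3 to 10 for low-CO2, 1 to 6 for chlorophyll and 3 to 30 for chloroplast-encoded genes. Of 105 called named genes, up to 33 lost their call without 1 library, 3 with DESeq2, 4 with library size scaling and 65 with the 2-fold minimum, and 10 of 82 at 10 CPM. The spread here rests on 4 residual degrees of freedom, or 3 with a library left out, and the cause of single lost calls was not tested.

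Replicate numbers are shared by the groups, and the correlation of same-numbered libraries' deviations was 0.06 between dnmt1 mt+ and mt-, -0.05 between the WT groups, 0.15 and 0.12 between WT mt+ and dnmt1 mt- and mt+, and at most 0.00 for the other 2 pairs of groups. These values do not settle whether same-numbered libraries were handled together, and the labels give replicate numbers only, so the main fit used no pairing. With the replicate number as a block, 3620 genes were called in dnmt1, 3597 in WT and 2359 for the difference, and the block ended no call of a named gene.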

Other observations

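Newer nuclear IDs, those numbered from 800000, gave a lower share of calls than older ones: 159 of 1156 tested genes (13.8%) against 22.7% of 14032. In the count table the newer IDs were 2195 and the older 15416, so newer ones more often had counts too low to test. Whether low counts account for the lower share was not tested. Cre10.g448977 and Cre17.g723400 were among the 5 largest positive differences from WT at 5 CPM or more. Cre10.g448977 held 8.31 and 10.5 CPM in dnmt1 mt+ and 3.88 and 3.47 CPM in dnmt1 mt- (1.35 ± 0.23) and was lower in mt+ in WT (-1.82). Cre17.g723400 was at 8.97 and 6.85 CPM against 4.70 and 5.31 CPM (0.66 ± 0.21) and at -2.54 in WT; its dnmt1 call (edgeR adjusted p = 0.0376) was lost in 5 of 8 fits with a library left out (up to 0.289). Cre02.g144650 was not called in dnmt1 (edgeR adjusted p = 0.0932), at 10.4 and 7.92 CPM against 12.2 and 14.2 CPM, and was higher in mt+ in WT (2.21).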
